A study of Mus musculus with 12 samples.

Results

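The 4-day differentiation of Smad4 knockout mouse embryonic stem (ES) cells was followed by comparing the 2 Smad4 knockout (S4KO) libraries of day 4 with the 2 S4KO libraries of day 0, over all genes of the deposited count table. These 4 libraries were chosen by genotype and day from the 12 of the series, and 18693 of 32285 genes passed the filter on low counts and were tested. Each of 3 genotypes, wild type (WT), Smad2 and Smad3 double knockout (S23DKO) and S4KO, was sampled as undifferentiated ES cells (day 0) and as embryoid bodies (day 4), with 2 libraries per group. Every sample was labelled as the line E14Tg2a.IV, no agent was named for day 0, and at day 4 leukaemia inhibitory factor (LIF) had been withdrawn and the cells grown as embryoid bodies, aggregates in which ES cells differentiate. The labels did not say how many S4KO clones were used, which part of Smad4 was altered, or whether replicates were separate cultures, so p-values measure only the spread between these libraries, which may be technical.

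Smad4 is the common partner that receptor-activated Smads bind on their way to target genes: Smad2 and Smad3 carry the signal of Nodal, activin and TGF-beta, and Smad1, Smad5 and Smad9 that of bone morphogenetic proteins (BMP). ES cells without LIF leave the naive pluripotent state, pass through a formative, epiblast-like state and then form germ layers. In the embryo, Nodal signalling is known to be needed for the primitive streak, mesoderm and endoderm, and it restrains neural fate.

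The total count was 49523324 and 50166446 in S4KO day 0 replicates 1 and 2, and 50876757 and 31566376 in day 4 replicates 1 and 2, so day 4 replicate 2 was the shallowest of the 12 libraries. Smad4, the targeted gene, had 100 and 79.6 counts-per-million (CPM, scaled to trimmed-mean library sizes) at S4KO day 0 and 121 and 144 CPM at day 4, within or above the 49.6 to 136 CPM of the 4 WT libraries. The transcript level therefore did not check the knockout label, since the altered part is not known. Hprt, a purine salvage gene that E14Tg2a cells are known to lack, had 212, 204, 171 and 169 CPM in the 4 S4KO libraries and less than 1 CPM in each of the 8 others (0.455 and 0.627 CPM at WT day 0). Genotype and this difference in the cells cannot be told apart in the comparisons of S4KO with WT or S23DKO, while both S4KO days shared it.

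Promoters of 3 genes on which the results turn are shown first: Fgf5, which had the highest log2 rise among the genes named, Klf4, which had the largest drop of the naive genes, and Eomes, whose level stayed low in S4KO and rose in WT. Each is the RefSeq promoter of build GRCm38.p6, 250 bases before to 50 after the start, written 5′ to 3′ on the strand of the gene; capitals mark TATAAA, and the positions were chr5:98253934-98254233 on the plus strand for Fgf5, chr4:55532426-55532725 on the minus strand for Klf4 and chr9:118477939-118478238 on the plus strand for Eomes.
Fgf5: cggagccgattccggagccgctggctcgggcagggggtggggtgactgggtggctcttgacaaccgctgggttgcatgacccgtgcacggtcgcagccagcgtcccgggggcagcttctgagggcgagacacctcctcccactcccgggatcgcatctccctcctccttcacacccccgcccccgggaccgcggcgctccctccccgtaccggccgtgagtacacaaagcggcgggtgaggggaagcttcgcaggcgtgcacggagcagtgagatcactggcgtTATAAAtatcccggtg
Klf4: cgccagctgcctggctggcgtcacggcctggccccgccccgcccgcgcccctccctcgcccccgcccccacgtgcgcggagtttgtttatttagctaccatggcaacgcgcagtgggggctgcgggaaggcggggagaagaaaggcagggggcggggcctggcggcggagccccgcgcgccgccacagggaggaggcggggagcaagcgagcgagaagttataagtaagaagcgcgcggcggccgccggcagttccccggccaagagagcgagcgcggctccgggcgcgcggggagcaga
Eomes: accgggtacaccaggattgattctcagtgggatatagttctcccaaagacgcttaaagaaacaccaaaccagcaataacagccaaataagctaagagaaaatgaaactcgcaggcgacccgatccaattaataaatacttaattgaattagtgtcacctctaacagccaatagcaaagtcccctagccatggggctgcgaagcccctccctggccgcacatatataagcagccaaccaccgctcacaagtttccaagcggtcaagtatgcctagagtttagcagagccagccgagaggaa
The G and C share was 68.3% for Fgf5, 74.3% for Klf4 and 47.3% for Eomes. On either strand, the Smad-box letters CAGAC and the Smad-motif letters GGCGCC were in none of the 3 windows, and TATAAA was in that of Fgf5 alone. In Fgf5 it lies within the 50 bases after the start, not before it. Of 32851 promoters of the same length, 49.6% held CAGAC, 11.9% GGCGCC and 13.6% TATAAA, on either strand, with matches to different motifs free to overlap. These are matches of letters only.

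By day 4, S4KO cells had gained epiblast-type transcripts and lost part of their naive transcripts. Primitive streak genes and part of the endoderm genes, such as the GATA factors, had stayed low. Other members of the endoderm lists, such as Cldn6 and Lrp2, rose. edgeR's quasi-likelihood test called 1663 genes at an adjusted p under 0.05, 8.9% of those tested: 950 rose (5.08%) and 713 fell (3.81%). The same test called 8157 genes (43.6%) in WT and 1315 (7.03%) in S23DKO. The S4KO count depended on single libraries: it was 490 higher and 508 lower without day 0 replicate 1, 402 and 310 without day 0 replicate 2, 995 and 820 without day 4 replicate 1, and 154 and 71 without day 4 replicate 2. With the spread estimated from the 4 S4KO libraries alone, 8 genes were called in each direction. Simulated counts of the same design and 18693 genes had 1 common spread for all genes and no other changed genes. There, 87% of 100 genes changed by 2 on the log2 scale and 7% of 100 changed by 1 were recovered. Most changes of 2-fold were thus not detectable in that setting. The real genes differ in spread and more of them were called, so the simulation cannot give the share detectable in the data. Of the real calls, 889 rises and 630 falls were of at least 1 on the log2 scale.

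The largest rise among the named genes was that of Fgf5, a growth factor whose transcript marks the epiblast, at chr5:98254184-98277030 (mm10). It had 0.0621 and 0.0595 CPM at day 0 and 8.84 and 98.9 CPM at day 4 (log2 fold change 9.73 ± 1.40 SE, edgeR adjusted p = 0.00408). Both day 4 libraries were far above both day 0 libraries, and replicate 2 was far above replicate 1. In WT, Fgf5 had 1.05 and 0.951 CPM at day 0 and 189 and 167 CPM at day 4, and the S4KO change minus the WT change was 2.27 ± 1.76 (edgeR adjusted p = 0.482). In S23DKO it reached 2.77 and 2.80 CPM and did not pass (log2 3.37, edgeR adjusted p = 0.086).

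Other large rises followed the same order of libraries, with day 4 replicate 2 above replicate 1. Car4, a carbonic anhydrase, went from 0.456 and 1.35 CPM to 19.99 and 105 CPM (6.10 ± 0.81, edgeR adjusted p = 0.00279). Slc39a8, a metal ion importer, went from 0.373 and 0.357 CPM to 8.31 and 33.5 CPM (5.83 ± 0.70, edgeR adjusted p = 0.00187). Kif1a, a motor protein of axonal transport, went from 2.28 and 4.24 CPM to 90.8 and 206 CPM (5.51 ± 0.52, edgeR adjusted p = 0.000575), and in WT from 18.2 and 23.5 CPM to 198 and 343 CPM. Sema6a, a guidance cue, rose by 6.13 ± 0.80, Fndc3c1 by 6.15 ± 0.78 and Zfp608 by 5.26 ± 0.60 on the log2 scale. The calls of these 6 genes and of Fgf5 held with each S4KO library left out in turn. The calls of St6gal2, Thsd7a and Gabra3, which had fitted changes of 5.32 to 5.39, were lost without day 0 replicate 2 and without day 4 replicate 2, and that of Ms4a4d (6.01 ± 1.11) without day 4 replicate 2.

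Mid1, an X-linked ubiquitin ligase, stood apart from the other large rises. It had 0.248 and 0.397 CPM at S4KO day 0, 1.13 CPM in day 4 replicate 1 and 35.1 CPM in day 4 replicate 2 (5.79 ± 1.21, edgeR adjusted p = 0.0155). All 4 WT libraries (382 to 732 CPM) and all 4 S23DKO libraries (207 to 504 CPM) were above every S4KO library. The Mid1 call was lost without either day 0 library and without day 4 replicate 2 (1.79, edgeR adjusted p = 0.085).

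Of the largest drops, those of Emp1 and Xaf1 had close replicates at day 4, while others, such as that of Inhbb, did not. Emp1, a membrane protein of epithelia, fell from 67.8 and 51.2 CPM to 2.30 and 1.87 CPM (−4.83 ± 0.33, edgeR adjusted p = 7.21e-05). Xaf1, a gene linked to cell death, fell from 19.4 and 32.3 CPM to 1.15 and 1.09 CPM (−4.53 ± 0.38, edgeR adjusted p = 0.00038). Both fell as well in WT, to 1.53 and 1.17 CPM for Emp1 and 2.25 and 1.36 CPM for Xaf1. Msln (−4.21 ± 0.41), Catip (−4.25 ± 0.44) and Gna14, a G protein subunit (−4.05 ± 0.48), also fell, and these 5 calls held with each S4KO library left out. Inhbb, which encodes a subunit of activin B, a ligand of the Smad2 and Smad3 branch, fell from 34.9 and 34.7 CPM to 3.51 and 0.435 CPM (−4.10 ± 0.88, edgeR adjusted p = 0.0167). The call of Inhbb was lost without day 4 replicate 2, as were those of Fcgr2b and Hal.

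**Figure D1:**
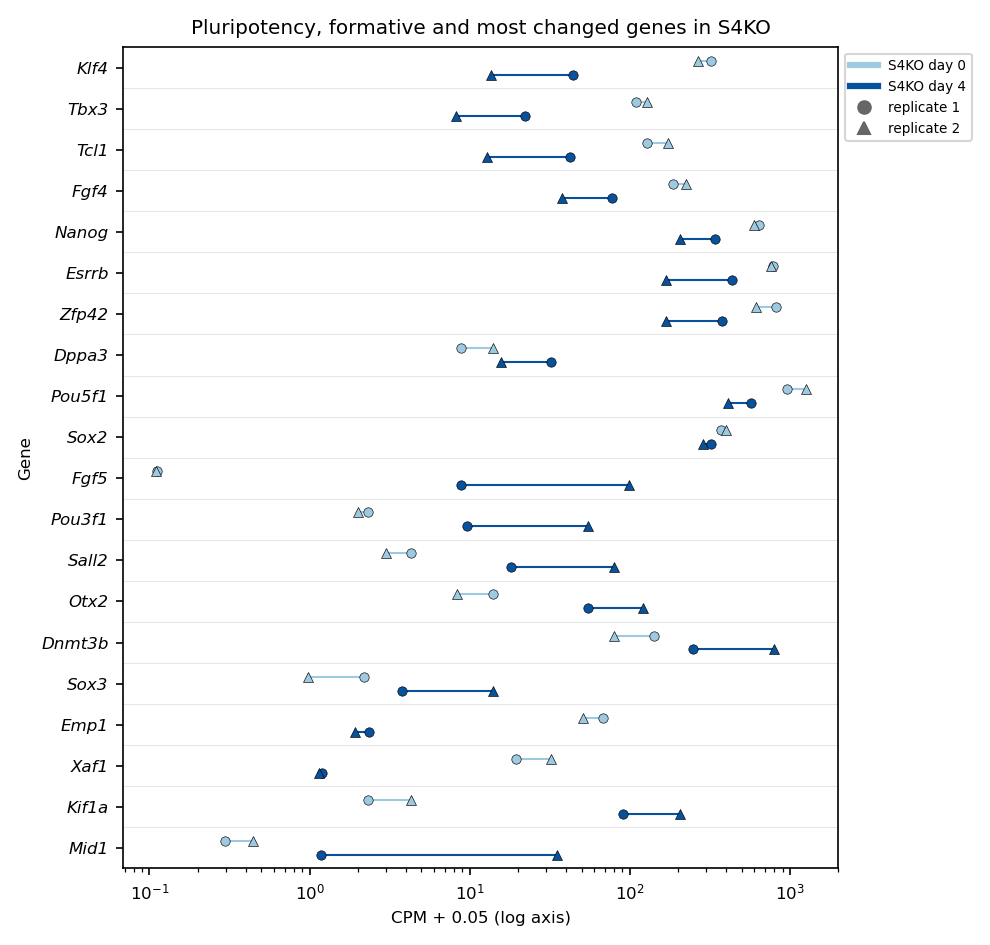
CPM + 0.05 on a log axis for 20 pluripotency, formative and most changed genes in S4KO, with day 0 in light blue, day 4 in dark blue, circles for replicate 1 and triangles for replicate 2. Fgf5 reached 8.84 and 98.9 CPM at day 4 and Emp1 fell to 2.30 and 1.87 CPM. For the naive and formative genes shown, the triangle of day 4 lay farther from day 0 than the circle, except for Dppa3, where it lay nearer.

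Naive pluripotency genes, the transcription network that LIF sustains, fell in part in S4KO. Of 18 tested, edgeR called 6 lower and 0 higher in S4KO, against a background of 3.81% lower, and DESeq2 called 12 lower and 1 higher. Counts for this and the other lists are by edgeR where no tool is named. The S4KO background for each list is 5.08% called higher and 3.81% called lower. Over all 18693 genes tested, DESeq2 called 1496 higher and 1388 lower in S4KO, and 4824 (25.8%) had an unadjusted edgeR p under 0.05. For the difference from WT, DESeq2 called 781 higher and 772 lower over all genes, and 4015 (21.5%) had such a p. The median log2 change of the naive genes was −1.34 against 0.02 over all genes tested. In WT 17 of 18 fell, with a median of −2.58. The test of the difference between the S4KO and WT changes passed for 0 of the 18 by edgeR, for 2 by DESeq2 and for 6 at an unadjusted p under 0.05, each with the higher change in S4KO: a smaller fall for 5 of these 6, and for Dppa3 a change of the other sign. The median change over the 18 genes was −0.89 in day 4 replicate 1 and −2.09 in replicate 2, on the scale of log2(CPM + 0.5) against the day 0 mean, and replicate 2 was below replicate 1 for 18 of 18 genes. Among all 18693 genes tested, day 4 replicate 2 was above replicate 1 for 9409 and below it for 8923. Genes of a list are not independent replicates, which limits this and the like counts below.

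Klf4, a factor of the naive network and of reprogramming, lies at chr4:55527143-55532466 (mm10). It had 319 and 267 CPM at day 0 and 44.4 and 13.5 CPM at day 4 (−3.34 ± 0.65, edgeR adjusted p = 0.0119). Tbx3, a T-box factor of the naive state, fell from 109 and 128 CPM to 22.1 and 8.21 CPM (−2.96 ± 0.48, edgeR adjusted p = 0.00558). Both day 4 libraries lay below both day 0 libraries for each gene, replicate 2 farther. Tcl1, an AKT co-activator, fell by 2.44 ± 0.48, Fgf4, the growth factor that prompts ES cells to differentiate, fell by 1.83 ± 0.30, and Fbxo15 fell by 1.53 ± 0.29. Nanog fell from 641 and 599 CPM to 342 and 205 CPM (−1.18 ± 0.24, edgeR adjusted p = 0.0146). The calls of Tbx3 and Fgf4 held with each S4KO library left out. Those of Klf4, Tcl1 and Fbxo15 were lost without day 4 replicate 2, and that of Nanog without day 4 replicate 2 or day 0 replicate 1. The count of naive genes that fell was 11 without day 4 replicate 1 and 2 without day 4 replicate 2.

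Several core naive factors did not pass in S4KO, and their day 4 replicates lay far apart. Esrrb, an orphan nuclear receptor, had 781 and 766 CPM at day 0 and 432 and 168 CPM at day 4 (−1.37 ± 0.46, edgeR adjusted p = 0.089), and in WT went from 525 and 638 CPM to 64.1 and 92.5 CPM. Zfp42, also called Rex1, had 814 and 612 CPM and then 376 and 168 CPM (−1.39 ± 0.47, edgeR adjusted p = 0.0876). Klf2 had 173 and 262 CPM and then 131 and 65.8 CPM (−1.14 ± 0.65, edgeR adjusted p = 0.3), against 356 and 348 CPM falling to 17.9 and 43.7 CPM in WT. In each of these the lower S4KO day 4 library was replicate 2. Dppa3, a maternal-effect gene of the naive state and germ line, was the exception in sign: it had 8.80 and 13.9 CPM at day 0 and 32.0 and 15.6 CPM at day 4 in S4KO (1.07 ± 0.35, edgeR adjusted p = 0.0806), and fell in WT from 26.2 and 20.4 CPM to 7.36 and 6.82 CPM (difference 2.78 ± 0.50, edgeR adjusted p = 0.0606).

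Among 14 pluripotency genes shared by the naive and later states, edgeR called 3 lower and 0 higher, with a median of −0.48, and DESeq2 called 5 lower and 1 higher. Tdgf1, the Nodal co-receptor Cripto, fell from 1121 and 1204 CPM to 283 and 148 CPM (−2.43 ± 0.38, edgeR adjusted p = 0.005). Pou5f1, which encodes Oct4, fell from 958 and 1256 CPM to 569 and 408 CPM (−1.18 ± 0.32, edgeR adjusted p = 0.0444), and Dppa5a from 1108 and 1569 CPM to 664 and 327 CPM (−1.43 ± 0.37, edgeR adjusted p = 0.0334). Sox2, which also marks neural progenitors, had 371 and 398 CPM and then 323 and 287 CPM (−0.33 ± 0.31, edgeR adjusted p = 0.534). So Pou5f1 kept over 400 CPM in both day 4 libraries. The calls of Tdgf1, Dppa5a and Pou5f1 were lost without day 4 replicate 2, those of Dppa5a and Pou5f1 also without day 0 replicate 2, and that of Pou5f1 also without day 0 replicate 1. The count of members that fell was 1 without day 0 replicate 2, 5 without day 4 replicate 1 and 0 without day 4 replicate 2.

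Of 13 genes of the LIF and STAT3 pathway, 4 fell and 0 rose, with a median of −1.04, and in WT 8 fell. Socs3, a feedback inhibitor induced by STAT3, fell from 123 and 93.0 CPM to 24.8 and 26.9 CPM (−2.06 ± 0.39, edgeR adjusted p = 0.0107). Gjb5, a gap junction protein, fell from 27.5 and 52.3 CPM to 8.76 and 5.60 CPM (−2.47 ± 0.36, edgeR adjusted p = 0.00417), and Bcl3 fell by 2.12 ± 0.58; the fourth was Klf4. Lifr, the LIF receptor, had 116 and 72.8 CPM and then 68.6 and 29.0 CPM (−0.96 ± 0.36, edgeR adjusted p = 0.124). For Socs3 the day 4 replicates lay close together. The call of Gjb5 held with each S4KO library left out, that of Socs3 was lost without day 4 replicate 2, and that of Bcl3 with any 1 of the 4 left out. The count of members that fell was 7 without day 4 replicate 1 and 1 without day 4 replicate 2.

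Most formative and primed epiblast genes rose. Of 14 tested, 9 rose and 0 fell, against a background of 5.08% higher, with a median of 1.87; in WT 11 rose, with a median of 2.30, and in S23DKO 1 rose and 1 fell, with a median of −0.08. The difference from the WT change passed for 0 of 14 by edgeR and for 2 by DESeq2, both with the lower change in S4KO. The difference from the S23DKO change passed for 0 by edgeR, for 4 by DESeq2 and for 11 at an unadjusted p under 0.05. All of these were higher in S4KO, and 7.45% of all genes passed at that p. The median change was 1.10 in day 4 replicate 1 and 2.19 in replicate 2, and replicate 2 was above replicate 1 for 14 of 14 genes. Without day 0 replicate 2 or without day 4 replicate 2 the number that rose was 3.

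Pou3f1, a POU factor of the epiblast and neural plate, had 2.28 and 1.96 CPM at day 0 and 9.55 and 55.1 CPM at day 4 (3.93 ± 0.76, edgeR adjusted p = 0.0111). Sall2 rose from 4.25 and 2.95 CPM to 18.1 and 79.8 CPM (3.76 ± 0.65, edgeR adjusted p = 0.00708). Otx2, a homeobox factor of the epiblast and anterior brain, rose from 13.9 and 8.25 CPM to 54.9 and 120 CPM (2.98 ± 0.42, edgeR adjusted p = 0.00393). No day 4 library overlapped day 0 for these 3 genes. Such a lack of overlap between the S4KO days, here and for genes given below, was common: it held for 10564 of the 18693 genes tested (56.5%). Dnmt3b, a de novo DNA methyltransferase, rose from 142 and 79.7 CPM to 248 and 793 CPM (2.23 ± 0.49, edgeR adjusted p = 0.0188), while S23DKO had 324 and 159 CPM and then 221 and 220 CPM. Dnmt3a, its close relative, rose by 0.96 ± 0.21, Sfrp2, a secreted Wnt antagonist, by 1.88 ± 0.44, and Sox3 by 2.52 ± 0.69. The calls of Sall2 and Otx2 held with each S4KO library left out. Those of Pou3f1, Dnmt3b and Dnmt3a were lost without day 0 replicate 2 or day 4 replicate 2, and those of Sfrp2 and Sox3 without either day 0 library or day 4 replicate 2. Grhl2 also rose, by 0.94 ± 0.25, and its call was lost with any 1 left out.

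Primitive streak genes stayed near their day 0 level in S4KO or rose to a small part of the level in WT. In bulk samples, fewer cells of a type and less RNA per cell cannot be told apart. Of 17 genes listed, 16 were tested; edgeR called 6 higher and 0 lower in S4KO, with a median of 0.67, and DESeq2 called 7 higher and 1 lower. In WT 11 rose and 1 fell, with a median of 5.26. The difference between the S4KO and WT changes was called for 28 genes over the whole table (0.15%), 26 of them with the lower change in S4KO (0.139%), and 2 of the 26 were streak genes, Eomes and Foxa2. At an unadjusted p under 0.05 the difference passed for 4015 genes (21.5%), among them 10 of the 16 streak genes. DESeq2 called the difference for 8 of the 16, beside 781 higher and 772 lower over the whole table. All of these streak genes had the lower change in S4KO. The number of streak genes that rose in S4KO was 1 without day 0 replicate 1, 2 without day 0 replicate 2 and 0 without day 4 replicate 2.

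Eomes, a T-box factor that starts mesendoderm formation, lies at chr9:118478212-118486132 (mm10). It had 8.28 and 11.3 CPM at S4KO day 0 and 12.2 and 15.8 CPM at day 4 (0.52 ± 0.24, edgeR adjusted p = 0.21). In WT it went from 3.96 and 4.24 CPM to 249 and 241 CPM (log2 fold change 5.90), so every S4KO library lay between the WT days. The S4KO change minus the WT change was −5.39 ± 0.37 (edgeR adjusted p = 0.000175), the smallest p of the 28 genes. In S23DKO Eomes had 6.96 and 5.10 CPM and then 7.15 and 5.92 CPM. The difference from WT was called with each library of the 4 groups left out in turn and under each other alternative tried.

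The other streak factors were scarce in S4KO at day 4. T, which encodes Brachyury, had 0 and 0.238 CPM at day 0 and 0.415 and 3.39 CPM at day 4 (3.90 ± 1.01, edgeR adjusted p = 0.0359), against 102 and 124 CPM at WT day 4. Mixl1 had 0.352 and 0.0991 CPM and then 0.397 and 1.27 CPM (1.84 ± 0.74, edgeR adjusted p = 0.146), against 56.7 and 51.8 CPM at WT day 4. Fgf8, a growth factor of the streak, rose from 0.103 and 0.0793 CPM to 0.774 and 2.30 CPM (4.01 ± 0.82, edgeR adjusted p = 0.0142), against 20.7 and 72.2 CPM at WT day 4. For each, the WT day 4 libraries were above every S4KO library, and day 4 replicate 2 was the higher of the S4KO pair. The difference from WT did not pass for T (−4.55 ± 1.52, edgeR adjusted p = 0.138), Mixl1 (−5.06 ± 1.02, edgeR adjusted p = 0.0712) or Fgf8 (−2.19 ± 1.15, edgeR adjusted p = 0.293). Lhx1, a factor of the anterior streak, rose from 0 and 0.0991 CPM to 0.623 and 2.33 CPM (4.77 ± 0.87, edgeR adjusted p = 0.0102), and Wnt3, the ligand that starts the streak, from 0.166 and 0.278 CPM to 0.774 and 1.87 CPM (2.54 ± 0.62, edgeR adjusted p = 0.0287). The calls of T, Fgf8, Lhx1 and Wnt3 were lost without day 4 replicate 2, those of Fgf8 and Wnt3 also without either day 0 library, and that of T also without day 0 replicate 1.

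**Figure D2:**
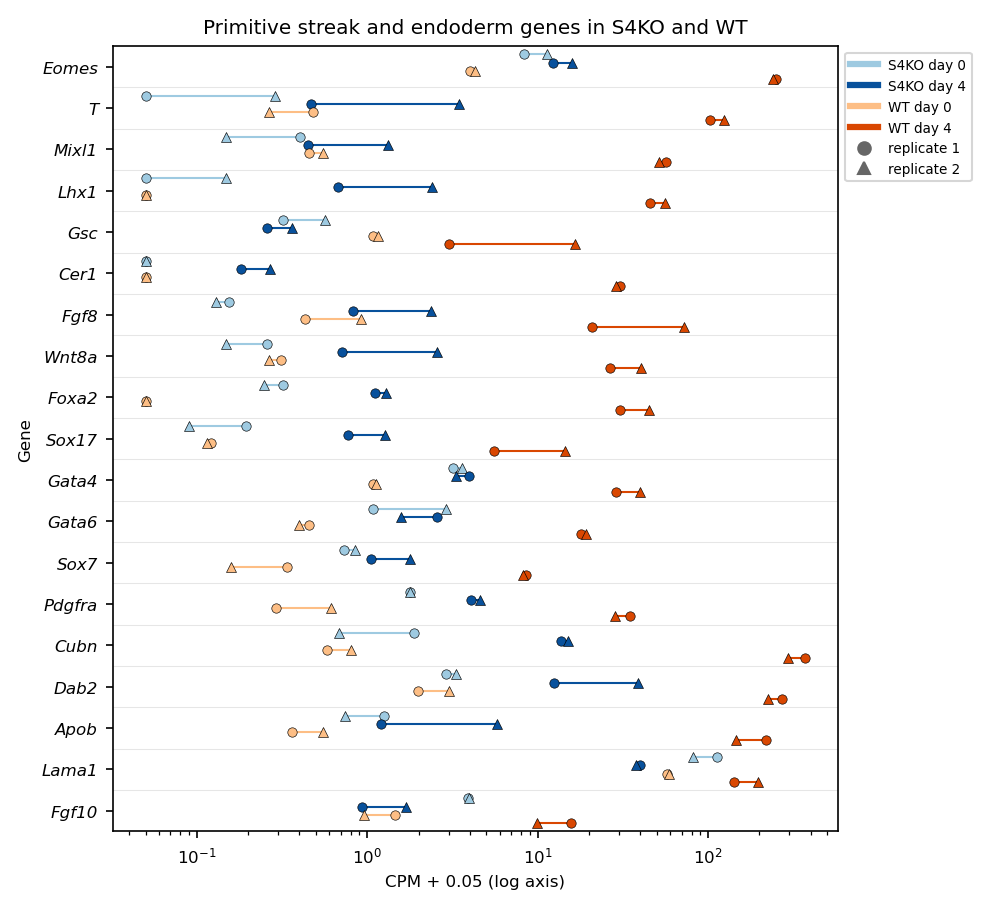
CPM + 0.05 on a log axis for 19 streak, endoderm and related genes in S4KO (blue) and WT (orange), with day 0 light, day 4 dark, circles for replicate 1 and triangles for replicate 2. For Eomes the WT day 4 points lie at 249 and 241 CPM and the S4KO day 4 points at 12.2 and 15.8 CPM.

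Of 13 definitive endoderm genes tested, 5 rose and 0 fell in S4KO, with a median of 1.21, and 9 rose in WT, with a median of 2.96. The S4KO change was called lower than the WT change for 2 by edgeR, and lower for 6 and higher for 1 by DESeq2. At an unadjusted p under 0.05 it was lower for 6 and higher for 2. Foxa2, a forkhead factor of endoderm and anterior streak, had 0.269 and 0.198 CPM at day 0 and 1.06 and 1.24 CPM at day 4 (2.28 ± 0.58, edgeR adjusted p = 0.0366), and in WT no count at day 0 and 30.5 and 45.2 CPM at day 4, a rise of at least 1106-fold with 3 counts in the whole group taken as the floor. Sox17, a factor of endoderm, had 0.145 and 0.0396 CPM and then 0.717 and 1.21 CPM (3.35 ± 0.88, edgeR adjusted p = 0.038), against 5.47 and 14.3 CPM at WT day 4. Cer1, a secreted antagonist of Nodal, BMP and Wnt, had no count at S4KO day 0 and 0.132 and 0.218 CPM at day 4, at least 5.41-fold higher (edgeR adjusted p = 0.0271), against at least 862-fold in WT. The epithelial gene Cldn6, a tight junction protein, rose more fully, from 14.6 and 28.5 CPM to 86.9 and 200 CPM (2.73 ± 0.42, edgeR adjusted p = 0.00471). Cxcr4, a chemokine receptor, had 2.74 CPM in both day 4 libraries (1.76 ± 0.42, edgeR adjusted p = 0.0255). Only the call of Cldn6 among these 5 held with each S4KO library left out. Those of Foxa2 and Cxcr4 were lost with any 1 left out, and those of Sox17 and Cer1 without either day 0 library or day 4 replicate 2. There were 1 rise without either day 0 library, 3 without day 4 replicate 1 and 1 without day 4 replicate 2.

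Extraembryonic endoderm genes held the most members with a smaller response in S4KO than in WT. Of 19 tested, 6 rose in S4KO and 17 in WT, with medians of 1.74 and 5.61, and 7 passed the test of the difference, all with the lower change in S4KO, beside a background of 0.139%. DESeq2 called the difference for 12 of the 19, and 13 passed at an unadjusted p under 0.05, all with the lower change in S4KO. The 7 called by edgeR were Apob, Gata6, Cubn, Gata4, Foxa2, Pdgfra and Sox7. Leaving out 1 library at a time gave 3 to 10 such members. The median change was 0.31 in day 4 replicate 1 and 1.18 in replicate 2. The number of members that rose in S4KO was 3 without day 0 replicate 1, 2 without day 0 replicate 2, 8 without day 4 replicate 1 and 2 without day 4 replicate 2.

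The GATA factors of this lineage did not pass the test in S4KO. Gata4 had 3.15 and 3.53 CPM at S4KO day 0 and 3.89 and 3.27 CPM at day 4 (0.10 ± 0.28, edgeR adjusted p = 0.863), and in WT went from 1.03 and 1.08 CPM to 28.7 and 40.0 CPM (difference −4.92 ± 0.42, edgeR adjusted p = 0.00043). Gata6 had 1.03 and 2.85 CPM and then 2.53 and 1.52 CPM (0.07 ± 0.49, edgeR adjusted p = 0.954), against 17.8 and 19.04 CPM at WT day 4 (difference −5.54 ± 0.74, edgeR adjusted p = 0.0149). For Gata4 and Gata6 the S4KO days overlapped, and WT day 4 was above all of them. Sox7 had 0.683 and 0.793 CPM and then 1.001 and 1.74 CPM, with a difference of −4.51 ± 0.65 (edgeR adjusted p = 0.023). Pdgfra, a receptor of primitive endoderm and mesoderm, had 1.74 and 1.73 CPM and then 4.00 and 4.54 CPM (1.30 ± 0.37, edgeR adjusted p = 0.0527), against 34.9 and 28.3 CPM at WT day 4 (difference −4.98 ± 0.56, edgeR adjusted p = 0.00412). The difference of Gata6 was lost without either WT day 0 library, that of Sox7 without the second WT day 0 library, the first WT day 4 library or the first S4KO day 4 library, while those of Gata4 and Pdgfra held with each library left out.

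Endocytic receptors of the visceral endoderm rose in S4KO, unlike the GATA factors. Cubn, which encodes cubilin, rose from 1.82 and 0.634 CPM to 13.7 and 15.0 CPM (3.55 ± 0.56, edgeR adjusted p = 0.00531), with close day 4 replicates, against 372 and 296 CPM at WT day 4 (difference −5.46 ± 0.80, edgeR adjusted p = 0.023). Lrp2, which encodes megalin, the partner of cubilin, rose from 36.7 and 12.6 CPM to 77.2 and 282 CPM (2.87 ± 0.56, edgeR adjusted p = 0.0117), and Dab2, their adaptor, from 2.84 and 3.25 CPM to 12.3 and 38.9 CPM (3.07 ± 0.50, edgeR adjusted p = 0.00576). For Lrp2 and Dab2, replicate 2 was over 3 times replicate 1. The difference from WT did not pass for Dab2 (−3.58 ± 0.68, edgeR adjusted p = 0.0638) or Lrp2 (−1.15 ± 0.74, edgeR adjusted p = 0.391). Serum protein genes of the mature visceral endoderm were at or near 0: Apoa4 had no count at day 0 and 0.170 and 0.964 CPM at day 4, at least 15.5-fold higher in S4KO (edgeR adjusted p = 0.0287) and at least 445-fold higher in WT. Apob, the core protein of lipoprotein particles, had 1.20 and 0.694 CPM and then 1.15 and 5.75 CPM (1.84 ± 0.67, edgeR adjusted p = 0.112), against 219 and 146 CPM at WT day 4 (difference −6.96 ± 1.01, edgeR adjusted p = 0.023). Ttr and Afp were each 0 in S4KO day 4 replicate 1, with 0.933 and 2.95 CPM in replicate 2. The rises of Cubn and Dab2 held with each S4KO library left out; that of Lrp2 was lost without day 0 replicate 2 or day 4 replicate 2, and that of Apoa4 also without day 0 replicate 1. The differences of Cubn and Apob from WT were each lost without either WT day 0 library, replicate 1 of WT day 4 or replicate 1 of S4KO day 0, and that of Cubn also without replicate 1 of S4KO day 4.

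Basement membrane genes moved in both directions. Of 12 tested, 3 rose and 2 fell, with a median of 0.51, while in WT 6 rose and 0 fell. Col4a1, a type IV collagen chain, rose from 32.2 and 45.8 CPM to 86.9 and 131 CPM (1.48 ± 0.39, edgeR adjusted p = 0.0364), and Col4a2, its partner chain, by 1.61 ± 0.44 (edgeR adjusted p = 0.0439). Lama1, the laminin chain of the early embryo's basement membranes, fell from 113 and 81.9 CPM to 39.9 and 37.7 CPM (−1.33 ± 0.23, edgeR adjusted p = 0.00712). Lama1 rose in WT, from 57.1 and 59.1 CPM to 141 and 195 CPM, with no overlap of the days in either genotype, and the difference was −2.86 ± 0.32 (edgeR adjusted p = 0.00412). Nid1, the linker of laminin and collagen, fell from 244 and 212 CPM to 99.0 and 51.5 CPM (−1.60 ± 0.30, edgeR adjusted p = 0.00951). The falls of Lama1 and Nid1 were lost without day 4 replicate 2, the rise of Col4a1 without that library or either day 0 library, and that of Col4a2 without it or day 0 replicate 1. Rises numbered 0 without day 0 replicate 1, 1 without day 0 replicate 2, 5 without day 4 replicate 1 and 0 without day 4 replicate 2, where 0 fell. The difference of Lama1 from WT held with each library left out.

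In all, 6 genes were called in opposite directions in S4KO and WT. Lower in S4KO and higher in WT were Lama1, Lpp (−1.65 and 1.52), Tmem92 (−2.04 and 1.82), Sgcb (−1.24 and 0.99) and Fgf10. Fgf10, a growth factor of limb and organ buds, fell in S4KO from 3.83 and 3.90 CPM to 0.887 and 1.65 CPM (−1.62 ± 0.41, edgeR adjusted p = 0.0311) and rose in WT from 1.41 and 0.908 CPM to 15.7 and 9.85 CPM (difference −5.08 ± 0.59, edgeR adjusted p = 0.00474). The fall of Fgf10 was lost with any 1 S4KO library left out, while its difference from WT held. Ctla2a went the other way at low counts, with 0 CPM in both S4KO day 0 libraries and 0.283 and 1.27 CPM at day 4, against 0.168 and 0.0649 CPM and then 0 in WT. The S4KO call of Sgcb was lost with any 1 S4KO library left out, that of Lpp without day 0 replicate 1 or either day 4 library, and those of Tmem92 and Ctla2a without either day 0 library or day 4 replicate 2. The difference passed for Lama1, Lpp and Fgf10, and did not pass for Tmem92 (edgeR adjusted p = 0.0638), Sgcb (edgeR adjusted p = 0.0607) or Ctla2a (edgeR adjusted p = 0.0792); that of Lpp was lost without replicate 1 or 2 of WT day 0 or replicate 1 of WT day 4, S4KO day 0 or S4KO day 4.

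The 26 genes with a lower response in S4KO differed from WT in different ways. For 21 of them S4KO was below WT by more than 1 at day 4 on the scale of log2(CPM + 0.5). At day 0, S4KO was above WT by more than 1 for 13 of the 26, of which 5 were within 1 of WT at day 4. The rest of the 13, such as Eomes (1.16) and Gata4 (1.30), were among the 21. For these, part of the lower response was a higher S4KO level at day 0. Cemip, a hyaluronan-binding protein, had 1.78 and 0.733 CPM and then 0.566 and 0.715 CPM in S4KO, and 0.120 and 0.173 CPM and then 17.3 and 17.5 CPM in WT (difference −7.84 ± 0.67, edgeR adjusted p = 0.00043). Srgn, a proteoglycan core protein (−5.16 ± 0.46), and Adamts9, a matrix protease (−3.43 ± 0.29), likewise stayed within 1 of their day 0 level in S4KO. Tgfbr3, the TGF-beta co-receptor betaglycan, had 2.80 and 3.35 CPM and then 4.36 and 10.5 CPM in S4KO, and 1.08 and 1.25 CPM and then 47.2 and 43.4 CPM in WT (−4.01 ± 0.55, edgeR adjusted p = 0.0174). The differences of Cemip, Srgn and Adamts9 held with each library left out, and that of Tgfbr3 was lost without replicate 1 or 2 of WT day 0 or replicate 1 of WT day 4. For the other 5 genes, Chml, Atp7a, Nr2c2, Wnk3 and mt-Nd4l, S4KO was within 1 of WT at day 4 and above it by more than 1 at day 0. Chml had 37.2 and 19.3 CPM and then 37.9 and 39.1 CPM in S4KO, and 0.192 and 0.368 CPM and then 40.8 and 23.4 CPM in WT. Thus for these 5 the lower response went with a low WT level at day 0; Chml held with each library left out, and the other 4 were lost without WT day 0 replicate 1, among others. The 2 WT day 0 libraries also had the highest ribosomal protein shares of the series, 14.99% and 10.99%, against at most 7.82% in the other 10, and the part of this in the result was not tested. Of the 26, 11 held with each library left out and under the other count-based alternatives: Foxa2, Gm47381, Cemip, Chml, Eomes, Srgn, Fgf10, Pdgfra, Gata4, Adamts9 and Lama1. With replicate 2 of a group left out, the count of 26 became 504 (S4KO day 0), 921 (WT day 4) or 56 (S4KO day 4), and with replicate 1 left out it became 14 (WT day 0), 15 (WT day 4) or 17 (S4KO day 4).

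Only 2 genes had the higher change in S4KO (0.0107%). Plekha4 had 13.8 and 18.3 CPM and then 18.4 and 12.1 CPM in S4KO, and fell in WT from 20.9 and 17.6 CPM to 1.05 and 2.20 CPM (difference 3.50 ± 0.53, edgeR adjusted p = 0.0287). Lipc, hepatic lipase, had 1.28 and 1.69 CPM and then 0.510 and 0.467 CPM in S4KO, and in WT 1.41 and 1.73 CPM and then no count, at least 56.1-fold lower. So Plekha4 stayed near its day 0 level in S4KO, Lipc was lower at day 4 without overlap of the days, and both were nearly lost in WT. Both differences were lost without either WT day 0 library or replicate 1 of WT day 4, S4KO day 0 or S4KO day 4.

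**Figure D3:**
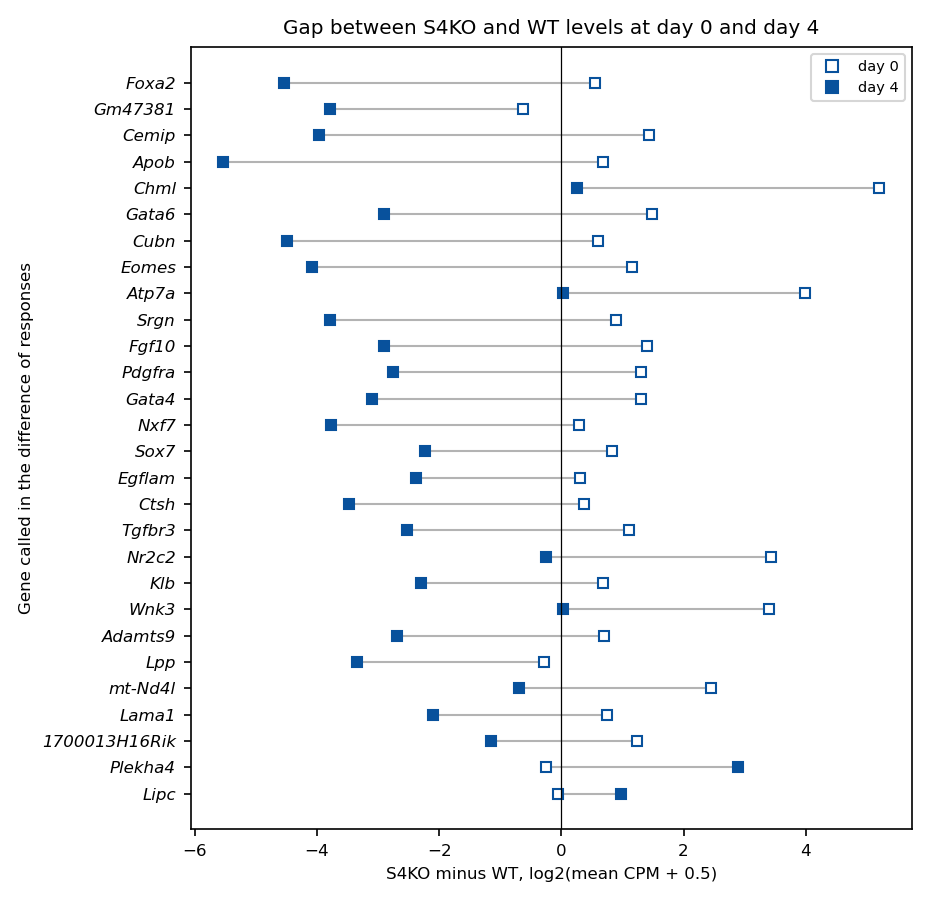
S4KO minus WT in log2(mean CPM + 0.5) at day 0 (open squares) and day 4 (filled squares) for the 28 genes whose change differed between S4KO and WT. For Eomes the squares lie at 1.16 and −4.08, and for Chml at 5.20 and 0.26.

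Genes of the Nodal pathway moved in both directions: of 20 tested, 5 rose and 4 fell, with a median of 0.67, and in WT 6 rose and 5 fell. Among ligands, Nodal had 54.5 and 57.6 CPM at day 0 and 35.6 and 17.4 CPM at day 4 (−1.08 ± 0.43, edgeR adjusted p = 0.142), and Gdf3 fell from 98.2 and 83.2 CPM to 50.8 and 29.4 CPM (−1.18 ± 0.30, edgeR adjusted p = 0.0319). Among co-receptors, Tdgf1 fell, as above, while its relative Cfc1 rose from 0 and 0.159 CPM to 2.04 and 1.55 CPM (4.44 ± 0.98, edgeR adjusted p = 0.0188). Pcsk6, a convertase that matures Nodal, fell by 1.30 ± 0.32, and Acvr2b, a type II receptor, rose from 19.9 and 13.6 CPM to 38.9 and 41.8 CPM (1.27 ± 0.33, edgeR adjusted p = 0.0358). Skil, a Smad co-repressor, rose from 153 and 79.1 CPM to 342 and 353 CPM (1.58 ± 0.29, edgeR adjusted p = 0.00975). For the feedback antagonists Lefty1 and Lefty2, day 4 replicate 1 was above both day 0 libraries, while replicate 2 was within the day 0 range for Lefty1 and below it for Lefty2. Lefty1 had 18.97 and 30.7 CPM at day 0, 67.0 CPM in day 4 replicate 1 and 20.2 CPM in replicate 2 (0.81 ± 0.59, edgeR adjusted p = 0.418), and Lefty2 had 20.7 and 38.1 CPM, then 66.8 and 17.9 CPM (0.53 ± 0.80, edgeR adjusted p = 0.728). In S23DKO both Lefty genes were at most 2.39 CPM in every library.

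The calls of this list also included the fall of Inhbb and the rise of Cer1. The calls of Gdf3, Cfc1, Pcsk6 and Skil were lost without day 4 replicate 2, those of Gdf3, Cfc1 and Pcsk6 also without day 0 replicate 1, and those of Gdf3, Pcsk6 and Skil also without day 0 replicate 2. The call of Acvr2b was lost with any 1 of the 4 left out. The numbers that rose and fell were 1 and 2 without day 0 replicate 1, 2 and 2 without day 0 replicate 2, and 0 and 0 without day 4 replicate 2.

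Of the 8 Smad genes themselves, 1 rose and 1 fell, with a median of 0.12, beside 5.08% called higher and 3.81% lower over all genes. Smad3 rose from 19.6 and 21.5 CPM to 34.2 and 47.5 CPM (0.99 ± 0.26, edgeR adjusted p = 0.0362), and Smad9 fell from 0.642 and 1.07 CPM to 0.245 and 0.187 CPM (−1.96 ± 0.48, edgeR adjusted p = 0.0297). Smad4 (0.56 ± 0.20, edgeR adjusted p = 0.103) and Smad2 (0.27, edgeR adjusted p = 0.54) did not pass. The calls of Smad3 and Smad9 were each lost without day 0 replicate 2 or day 4 replicate 2, that of Smad3 also without day 0 replicate 1 and that of Smad9 also without day 4 replicate 1.

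By edgeR, BMP pathway genes gave 1 rise among 14 and BMP-responsive genes 1 rise among 15, with medians of 0.81 and 0.88 and 0 falls, counts near the 5.08% called higher over all genes. DESeq2 called 2 BMP pathway genes higher and 1 lower, and 5 BMP-responsive genes higher and 0 lower. Id1, a classical BMP target and inhibitor of bHLH factors, had 4.70 and 4.60 CPM at S4KO day 0 and 2.62 and 4.88 CPM at day 4 (−0.32 ± 0.43, edgeR adjusted p = 0.689), and fell in WT from 48.8 and 51.3 CPM to 10.9 and 29.2 CPM. Each S4KO library was therefore below each WT library for Id1. Id2 had 6.999 and 6.62 CPM, then 7.51 and 12.6 CPM, and Id3 5.16 and 7.02 CPM, then 6.49 and 16.02 CPM, and neither passed. The ligand gene Bmp2 rose from 0.124 and 0.0595 CPM to 0.245 and 1.34 CPM (3.03 ± 0.78, edgeR adjusted p = 0.0335), while Bmp4 did not pass (−0.85 ± 0.51, edgeR adjusted p = 0.323). Gata3, a factor of trophoblast and surface ectoderm, rose from 0.518 and 0.377 CPM to 1.26 and 3.42 CPM (2.37 ± 0.49, edgeR adjusted p = 0.0144). The calls of Bmp2 and Gata3 were lost without day 0 replicate 2 or day 4 replicate 2, and that of Bmp2 also without day 0 replicate 1.

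Among 11 TGF-beta responsive genes 2 rose and 1 fell, and the day 4 libraries disagreed. The median change was −0.19 in day 4 replicate 1 and 1.59 in replicate 2. Thbs1, a matrix glycoprotein, had 3.15 and 1.94 CPM at day 0, 8.89 CPM in day 4 replicate 1 and 72.1 CPM in replicate 2 (3.99 ± 0.81, edgeR adjusted p = 0.0134). Tgfbi, a secreted adhesion protein, fell from 23.9 and 42.8 CPM to 14.9 and 5.35 CPM (−1.71 ± 0.44, edgeR adjusted p = 0.0333), so within this list replicate 2 was farther from day 0 in both directions. The calls of Thbs1 and Tgfbi were lost without day 0 replicate 2 or day 4 replicate 2. The number that rose was 0 without day 0 replicate 2, 5 without day 4 replicate 1 and 0 without day 4 replicate 2.

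The FGF list had calls in both directions, 5 higher and 3 lower of 14, with a median of 0.17, and a median change of 0.34 in day 4 replicate 1 and −0.04 in replicate 2. Dusp4, a phosphatase induced by ERK, rose from 11.2 and 15.1 CPM to 65.3 and 81.5 CPM (2.48 ± 0.36, edgeR adjusted p = 0.00408), and Spry1, another feedback inhibitor, from 9.11 and 13.3 CPM to 27.9 and 39.9 CPM (1.59 ± 0.32, edgeR adjusted p = 0.013). Etv4, an ETS factor that FGF signalling induces, fell from 89.6 and 124 CPM to 31.0 and 18.3 CPM (−2.11 ± 0.39, edgeR adjusted p = 0.00975). The remaining calls were the rises of Fgf5, Fgf8 and Fgf15 (1.60 ± 0.34) and the falls of Fgf4 and Fgf10. So Dusp4 and Etv4, both induced by the same pathway elsewhere, went opposite ways, without overlap of the days. The call of Dusp4 held with each S4KO library left out, those of Etv4, Spry1 and Fgf15 were lost without day 4 replicate 2, those of Spry1 and Fgf15 also without day 0 replicate 1, and that of Fgf15 also without day 0 replicate 2. The number that rose was 2 without day 0 replicate 1, 3 without day 0 replicate 2 and 2 without day 4 replicate 2, where 1 fell.

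Wnt genes gave 6 rises and 0 falls among 16, with a median of 0.78 against 1.96 in WT, where 10 rose. T and Wnt3, given above, were among the rises, and most of the others also stayed scarce. Wnt8a rose from 0.207 and 0.0991 CPM to 0.661 and 2.52 CPM (3.33 ± 0.65, edgeR adjusted p = 0.0118), against 26.4 and 40.3 CPM at WT day 4. Lgr5, the R-spondin receptor, had no count at day 0 and 0.170 and 0.622 CPM at day 4, at least 11.2-fold higher in S4KO and at least 113-fold higher in WT. Dkk1, a secreted Wnt antagonist, had 3 counts at S4KO day 0, and the ratio to day 4 was 18.2 (95% counting interval 5.85 to 91.3). Tcf7, a Wnt effector, rose from 58.7 and 69.8 CPM to 98.4 and 125 CPM (0.79 ± 0.22, edgeR adjusted p = 0.0495), and Axin2, the common Wnt target, did not pass (0.76 ± 0.47, edgeR adjusted p = 0.343) while WT went from 4.03 and 5.34 CPM to 31.3 and 51.6 CPM. The calls of Wnt8a, Lgr5 and Dkk1 were lost without day 4 replicate 2, those of Wnt8a and Lgr5 also without day 0 replicate 2, that of Lgr5 also without day 0 replicate 1, and that of Tcf7 with any 1 left out. The number that rose was 2 without either day 0 library and 0 without day 4 replicate 2.

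Neural genes rose in part. Of 24 tested of 25 listed, 7 rose and 1 fell in S4KO, with a median of 1.38. In WT 8 rose and 4 fell, with a median of 0.67. The difference from WT passed for 0 by edgeR, for 2 by DESeq2 and for 5 at an unadjusted p under 0.05. The last count was near the 21.5% of all genes that passed at that p. Nes, which encodes nestin of neural progenitors, rose from 14.7 and 13.6 CPM to 34.3 and 106 CPM (2.31 ± 0.41, edgeR adjusted p = 0.00815), and Zic5 from 24.1 and 17.8 CPM to 42.2 and 73.6 CPM (1.47 ± 0.33, edgeR adjusted p = 0.021). The other rises were those of Otx2 and Sox3, given above with the formative genes, and of 3 scarce genes, Pax3 (at least 25.5-fold), Six3 (at least 15.1-fold) and Fezf2 (at least 12.4-fold), none of which had a count at S4KO day 0. The neural plate factors Sox1 (0.98 ± 0.54, edgeR adjusted p = 0.278) and Pax6 (0.67 ± 0.49, edgeR adjusted p = 0.421) did not pass. Sox1 had 9.26 and 7.02 CPM and then 7.78 and 24.4 CPM in S4KO, above the 0.345 to 1.53 CPM of the 4 WT libraries, and Pax6 had 9.49 to 18.97 CPM against 1.09 to 2.44 CPM in WT. Ncam1, a neural adhesion molecule, fell from 55.1 and 32.6 CPM to 10.2 and 5.13 CPM (−2.50 ± 0.42, edgeR adjusted p = 0.00661). The calls of Nes, Zic5, Pax3, Six3, Fezf2 and Ncam1 were lost without day 4 replicate 2, those of the first 5 also without day 0 replicate 2, those of Zic5, Six3 and Fezf2 also without day 0 replicate 1, and that of Fezf2 also without day 4 replicate 1. The number that rose was 4 and 1 without day 0 replicates 1 and 2, and 1 without day 4 replicate 2.

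The VEGF receptor genes Flt1 and Kdr rose, and the call of Flt1 was the firmer. Flt1, a VEGF receptor also made by trophoblast, rose from 1.47 and 1.19 CPM to 13.1 and 20.4 CPM (3.65 ± 0.38, edgeR adjusted p = 0.000712), and that call held with each S4KO library left out. Kdr, the main VEGF receptor of mesoderm, rose from 1.86 and 1.11 CPM to 4.30 and 9.55 CPM (2.21 ± 0.50, edgeR adjusted p = 0.0195), against 4.78 and 5.19 CPM at WT day 4, and was lost without day 0 replicate 2 or day 4 replicate 2. Kdr was the 1 rise among 17 mesoderm genes tested of 19 listed (median 0.60), near the 5.08% called higher over all genes, and blood and endothelial genes gave 3 rises of 15 (median 0.92), Flt1, Kdr and Sox17, of which 1 was left without day 4 replicate 2. Dcn, a matrix proteoglycan of fibroblasts, had no count at day 0 and 0.793 and 5.19 CPM at day 4, at least 80.8-fold higher (edgeR adjusted p = 0.0157; lost without either day 0 library or day 4 replicate 2).

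Of 22 imprinted genes, 7 rose and 0 fell by edgeR, against 5.08% called higher over all genes, with a median of 0.78, and 12 were higher and 2 lower in WT. Igf2, a fetal growth factor, rose from 4.02 and 6.36 CPM to 26.1 and 86.0 CPM (3.43 ± 0.46, edgeR adjusted p = 0.00279), and H19, its neighbouring non-coding RNA, from 8.68 and 20.5 CPM to 98.1 and 176 CPM (3.23 ± 0.40, edgeR adjusted p = 0.00206). Nnat, which encodes neuronatin, rose from 2.34 and 1.59 CPM to 11.3 and 33.3 CPM (3.50 ± 0.55, edgeR adjusted p = 0.00527), while in WT it did not pass (0.90, edgeR adjusted p = 0.168; difference 2.60 ± 0.72, edgeR adjusted p = 0.11). All 3 were higher in replicate 2 at day 4, and their calls held with each S4KO library left out. Peg10, Snrpn, Plagl1 and Sgce rose by 1.64 ± 0.32, 1.21 ± 0.27, 1.64 ± 0.41 and 1.24 ± 0.31, and all 4 were lost without day 0 replicate 2 or day 4 replicate 2. The number that rose was 3 without day 0 replicate 2 and 3 without day 4 replicate 2.

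Of 15 germ line genes active in ES cells, edgeR called 5 lower and 0 higher, against 3.81% called lower over all genes, with a median of −0.68, and DESeq2 called 6 lower and 1 higher. In these, day 4 replicate 2 was below replicate 1 for 14 of 15. Hormad1, a meiotic chromosome axis protein, fell from 195 and 158 CPM to 84.5 and 40.8 CPM (−1.49 ± 0.34, edgeR adjusted p = 0.0201), and Stk31 from 47.4 and 52.4 CPM to 19.6 and 10.6 CPM (−1.72 ± 0.32, edgeR adjusted p = 0.0091). Of 15 stress response genes, 5 fell and 0 rose by both edgeR and DESeq2, with a median change of −0.89 in replicate 1 and −1.001 in replicate 2. Atf4, the main factor of the amino acid response, fell from 352 and 348 CPM to 189 and 174 CPM (−0.94 ± 0.21, edgeR adjusted p = 0.0196), and its target Asns, asparagine synthetase, from 661 and 590 CPM to 266 and 178 CPM (−1.495 ± 0.30, edgeR adjusted p = 0.0134). The calls of Hormad1, Stk31, Atf4 and Asns were lost without day 4 replicate 2, those of Hormad1 and Atf4 also without day 0 replicate 1, and that of Atf4 also without day 0 replicate 2. The germ line count was 2 without day 0 replicate 2 and 0 without day 4 replicate 2, and the stress count 2, 1 and 0 without day 0 replicate 1, day 0 replicate 2 and day 4 replicate 2.

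Glucose and hypoxia genes gave 3 rises of 24 entries tested, with a median of 0.37. The background for this list and those that follow was 5.08% called higher and 3.81% called lower over all genes. Adm, the vasodilator peptide adrenomedullin, rose from 0.683 and 0.654 CPM to 7.42 and 16.2 CPM (4.13 ± 0.49, edgeR adjusted p = 0.00181), a call that held with each S4KO library left out. The glucose transporter genes Slc2a1 (1.13 ± 0.31, edgeR adjusted p = 0.0415) and Slc2a3 (0.78 ± 0.18, edgeR adjusted p = 0.0234) rose less; Slc2a1 was lost without either day 0 library or day 4 replicate 2, and Slc2a3 with any 1 left out. Of the cadherin and mesenchymal genes, 1 of 15 rose, Cdh11 (2.01 ± 0.50, edgeR adjusted p = 0.0304; lost without either day 0 library or day 4 replicate 2), and 1 fell. Vim, which encodes vimentin, fell from 130 and 162 CPM to 29.3 and 41.0 CPM (−2.05 ± 0.43, edgeR adjusted p = 0.0157; lost without day 0 replicate 2 or either day 4 library), and Cdh1, E-cadherin, had 982 and 1015 CPM and then 932 and 1309 CPM (0.17 ± 0.20, edgeR adjusted p = 0.653). edgeR gave 0 calls in S4KO for 20 Hox genes, 15 genes of the two-cell embryo, 15 p53 genes, 22 cell cycle genes and 14 cholesterol genes. At an unadjusted p under 0.05, 7 two-cell genes were lower and 0 higher, and 5 cell cycle genes lower and 2 higher. At that p, 2 cholesterol genes and 1 p53 gene were higher, and 1 Hox gene was higher and 1 lower. Over all genes tested, 25.8% passed at that p in either direction. The day 4 libraries disagreed for the Hox genes, with a median change of 0.31 in replicate 1 and −0.29 in replicate 2. In these, replicate 2 was below replicate 1 for 20 of 20 and lower by more than 1 for 5. The levels were near the floor: summed over the 20 Hox genes, they were 15.4 and 21.0 CPM at day 0 and 20.8 and 8.02 CPM at day 4. DESeq2 called 2 two-cell genes, 1 cell cycle gene and 1 Hox gene lower and 1 cholesterol gene higher. Members of the repeated Zscan4 and Usp17l families in the two-cell list are uncertain, since their reads can be split among copies.

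**Figure D4:**
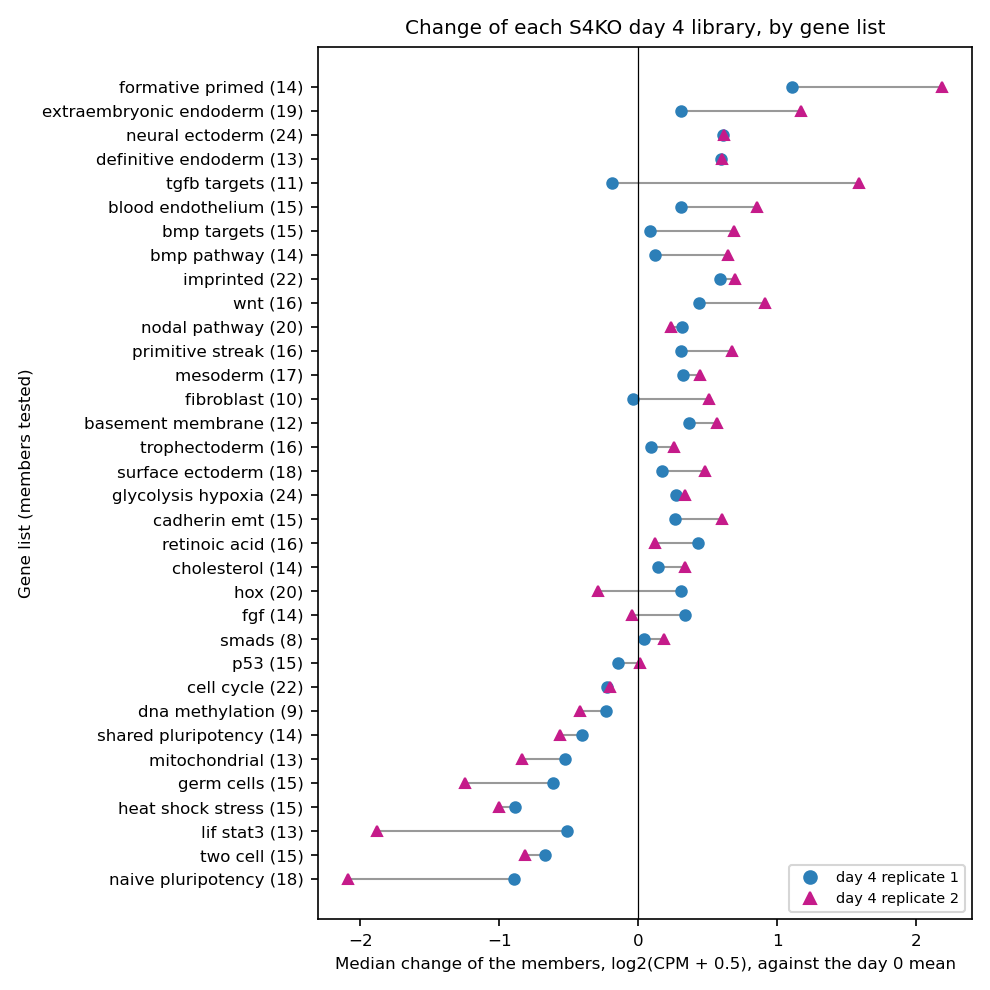
Median change of the members of 34 gene lists in S4KO, as log2(CPM + 0.5) in each day 4 library minus the day 0 mean, with circles for replicate 1 and triangles for replicate 2. The naive list lies at −0.89 and −2.09, the formative list at 1.10 and 2.19, and the TGF-beta list at −0.19 and 1.59.

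The 2 day 4 libraries differed by more than 1 on the scale of log2(CPM + 0.5) for 1022 genes (5.47%), 607 with replicate 2 higher (3.25%) and 415 with replicate 1 higher (2.22%). The 2 day 0 libraries differed that much for 1181 genes (6.32%), the WT libraries for 0.893% of genes at day 0 and 1662 genes (8.89%) at day 4, and the S23DKO libraries for 8.59% of genes at day 0 and 99 genes (0.53%) at day 4, so S4KO day 4 was not the group with the widest spread. Replicate 2 was the farther from day 0 for 844 of the 950 genes called higher and 582 of the 713 called lower, with median changes of 1.17 in replicate 1 and 1.81 in replicate 2 for the first set and −1.21 and −1.65 for the second. The split also ran along the WT change. Of 1602 genes called higher in WT by over 2, replicate 2 was higher by more than 1 for 312 and lower by more than 1 for 8, and of 1233 called lower in WT by over 2, these numbers were 5 and 172. At day 0 the replicate difference was −0.83 for Dnmt3b and 0.42 for Tcl1, while at day 4 it was 1.68 and −1.70.

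Tagln, Krt8, Krt18 and Sema3c were among the genes with a large excess in day 4 replicate 2. Tagln, a smooth muscle actin-binding protein, had 3.29 and 5.61 CPM at day 0 and 2.57 CPM in day 4 replicate 1 and 32.8 CPM in replicate 2 (1.99 ± 0.80, edgeR adjusted p = 0.148). Krt8, a keratin of simple epithelia, had 6.25 and 20.6 CPM and then 16.2 and 124 CPM (2.39 ± 0.80, edgeR adjusted p = 0.089), and its partner Krt18 rose from 5.94 and 25.1 CPM to 36.2 and 153 CPM (2.60 ± 0.70, edgeR adjusted p = 0.0407; lost without day 0 replicate 1 or day 4 replicate 2). Both keratins also differed at day 0, with replicate 2 higher. Sema3c, a secreted guidance cue, had 2.57 and 0.912 CPM and then 3.61 and 32.7 CPM (3.38 ± 0.83, edgeR adjusted p = 0.0295), so its replicate 1 stayed near day 0; the call was lost without either day 0 library or day 4 replicate 2.

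Dazl, Stra8, Mymx and Adam1a were among those with a large excess in day 4 replicate 1. Dazl, an RNA-binding protein of germ cells, had 40.8 and 78.4 CPM at day 0, 38.9 CPM in day 4 replicate 1 and 7.46 CPM in replicate 2 (−1.36 ± 0.60, edgeR adjusted p = 0.182). Stra8, a gene of meiotic entry, had 9.86 and 31.5 CPM and then 36.6 and 2.46 CPM, and Mymx, a micropeptide of myoblast fusion, fell from 40.5 and 68.0 CPM to 12.04 and 2.02 CPM (−2.93 ± 0.70, edgeR adjusted p = 0.0257; lost without day 0 replicate 2 or day 4 replicate 2). Replicate 1 was just below the day 0 range for Dazl and above it for Stra8, and replicate 2 was far below it for both. Adam1a was low in replicate 2 alone, with 34.6 and 27.9 CPM at day 0, 42.4 CPM in day 4 replicate 1 and 0.933 CPM in replicate 2, while the other 8 libraries had 13.2 to 44.0 CPM. Gm15564, an antisense gene and uncertain without a stated strand setting, had 177 and 136 CPM at day 0, 0 in day 4 replicate 1 and 98.6 CPM in replicate 2, and was also 0 in some and not other libraries of WT and S23DKO.

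**Figure D5:**
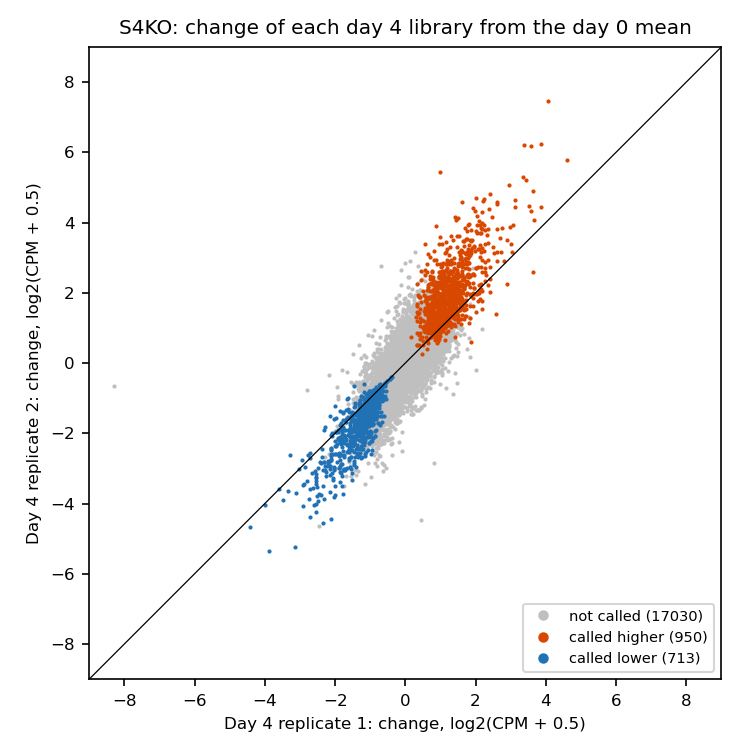
Change of each of 18693 genes in S4KO day 4 replicate 1 (x axis) and replicate 2 (y axis), as log2(CPM + 0.5) minus the day 0 mean, with the 950 genes called higher in orange, the 713 called lower in blue, the others in grey and a line at equal change. All 950 orange and 713 blue points lie in the quadrants where both replicates moved the same way, and 844 and 582 of them lie farther from 0 in replicate 2. The calls were made from these same libraries, so the shared direction is no separate check of the replicates.

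The genes called in S4KO were mostly called in WT too. Of the 950 that rose, 799 also rose in WT, 84.1% of the S4KO list and 18% of the WT list, and of the 713 that fell, 581 also fell in WT (81.5% and 15.7%). The S4KO and WT comparisons share no library, and the background in WT was 23.8% higher and 19.9% lower. The sizes differed: over the 1602 genes called higher in WT by over 2, the median change was 2.98 in WT and 1.498 in S4KO, and over the 1233 called lower by over 2 it was −2.84 and −1.36, sets that the WT change itself had chosen. With S23DKO the overlap was 325 higher (34.2% of the S4KO list, 48.7% of the S23DKO list) and 293 lower (41.1% and 45.3%), beside backgrounds of 3.57% and 3.46%.

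The responses of the 2 knockouts were compared directly. The S4KO change differed from the S23DKO change for 1 gene by edgeR (0.00535%), with 1392 genes (7.45%) at an unadjusted p under 0.05 and 134 higher and 109 lower by DESeq2. The 1 gene was Gm47381, a long intergenic RNA gene of chromosome 13, which had 4.99 and 6.05 CPM at S4KO day 0 and no count in either day 4 library, at least 157-fold lower. In WT it had 8.75 and 8.80 CPM and then 5.31 and 7.53 CPM, and in S23DKO 5.83 and 6.82 CPM and then 4.57 and 4.97 CPM. The loss was thus present in both S4KO day 4 libraries and in none of the other 10. Among genes that did not pass this test the knockouts still had unlike levels: Gata4 went from 6.10 and 8.02 CPM to 18.0 and 15.1 CPM in S23DKO (1.23, edgeR adjusted p = 0.0266) against 3.15 to 3.89 CPM in the S4KO libraries, and Dnmt3b rose in S4KO and not in S23DKO (−0.13, edgeR adjusted p = 0.898).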

How the data were processed

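Gene expression was measured by RNA-seq in 12 libraries, 2 for each of 3 genotypes at day 0 and day 4, made with the TruSeq RNA v2 kit from 500 ng of total RNA, per the labels' protocols. The authors deposited whole-number counts per Ensembl gene ID and, separately, FPKM per gene symbol, with 1 column per library. Build mm10, Cufflinks, StringTie and DESeq2 were named without roles or versions, per the submitters' processing notes; the aligner, the annotation and whether strand was used are not given in the sources used here. In the deposited counts, values of 1 (4966) were rarer than values of 2 (6989) or 3 (6895), so the counts may not be direct tallies of reads. Total counts ran from 31566376 to 55806858 per library.

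Groups were taken from the labels. GENCODE M21 gave a symbol and a position for 32158 of 32285 IDs, and promoters came from RefSeq (GRCm38.p6). All 12 libraries were fitted together with edgeR 4.0.16 (R 4.3.3) after filterByExpr and TMM scaling, with 1 coefficient per group and the quasi-likelihood test; genes were called at a Benjamini-Hochberg adjusted p below 0.05. The S4KO change from day 0 to day 4 was 1 contrast, and its differences from the WT and S23DKO changes were 2 others. CPM used TMM library sizes, and ± gives SE. Adjusted p-values always cover all genes tested. A fold against a group with no count was computed against 3 counts over the group, and counting intervals cover counting error only. The procedure was tested on simulated data. Tables were made with pandas 2.3.3, scipy 1.17.1 and numpy 2.4.6 under Python 3.11.15, and figures with matplotlib 3.10.9.

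Alternatives were another filter or none, RLE scaling, a minimum fold, DESeq2 1.42.0, limma 3.58.1 on log2 of the FPKM values deposited by the authors plus 1 or 0.1, a replicate block, only the groups compared, a length and GC correction, and each library left out. The 34 gene lists overlap, and the comparison and the lists were chosen with earlier results of these data known. Genes named were the 12 largest rises and 12 largest drops among called genes free of overlap whose higher group averaged at least 5 CPM (leaving out unnamed gene models), the 8 largest in each direction for each difference of changes and for the day 4 replicates, up to 8 members of each list described (called members first), and Smad2, Smad3, Smad4, Hprt and Id1; a gene that this rule names is not reported here. Chosen after their values were seen were Adamts9, Afp, Atp7a, Axin2, Ctla2a, Dppa3, Esrrb, Gdf3, Lefty1, Lefty2, Lipc, Lpp, Nodal, Nr2c2, Pax6, Pdgfra, Sgcb, Sox1, Sox7, Srgn, Tgfbr3, Tmem92, Ttr, Wnk3 and Zfp42, as were the counts per list with libraries left out.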

Additional observations from a re-analysis of the deposited data

Results flagged for a closer look

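For 9 of the genes named above, the change from day 0 to day 4 differed between S4KO and WT by the test of the difference itself, an interaction contrast of edgeR's quasi-likelihood model. Plekha4 was the 1 gene of these with the higher change in S4KO (3.50, edgeR adjusted p = 0.0287). The change was lower in S4KO by the log2 differences of −7.84 for Cemip (edgeR adjusted p = 0.00043), −6.37 for Chml (edgeR adjusted p = 0.000641) and −5.39 for Eomes (edgeR adjusted p = 0.000175). Among endoderm genes it was lower for Apob (−6.96, edgeR adjusted p = 0.023), Gata6 (−5.54, edgeR adjusted p = 0.0149) and Cubn (−5.46, edgeR adjusted p = 0.023). The fitted differences of Foxa2 (−11.58, edgeR adjusted p = 0.00771) and Gm47381 (−10.64, edgeR adjusted p = 0.00043) depend on the prior count and are no bounds, since WT day 0 held no count of Foxa2 and S4KO day 4 none of Gm47381.

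Gm47381 was also the 1 gene whose change differed between S4KO and S23DKO (−10.69, edgeR adjusted p = 0.00173), again with a fitted size that depends on the prior count. It is a gene model, and without a stated strand setting its reads cannot be told apart from those of an overlapping gene.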

How the results depend on the processing

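No gene called in the change of S4KO or in its differences from WT and S23DKO turned its sign under the alternatives run on the counts, while named genes that did not pass and lay near 0, such as Smad2 and Id1, turned in some. For S4KO day 4 against day 0, with 950 genes higher and 713 lower, the counts were 8 and 8 with only the S4KO groups in the fit, 1536 and 1620 with the length and GC correction, 1496 and 1388 with DESeq2, and 330 and 327 with limma on log2(FPKM + 1) without a filter. Leaving out 1 library gave 154 to 995 higher and 71 to 820 lower. Of the 1663 calls, 1660 were kept with the same direction by DESeq2, 1618 with the length and GC correction and 222 without day 4 replicate 2.

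For the difference from WT (2 higher, 26 lower), the counts were 11 and 50 with a minimum of 1 CPM in 2 libraries, 358 and 504 with no filter, 52 and 102 with the length and GC correction, and 781 and 772 with DESeq2. Limma on log2(FPKM + 1) gave 61 and 152, without a filter 44 and 187, and on log2(FPKM + 0.1) 17 and 90. RLE size factors gave 9 higher and 38 lower, and only the groups compared gave 0 higher and 20 lower. Leaving out 1 library gave 0 to 1087 higher and 14 to 921 lower. For the difference from S23DKO (0 higher, 1 lower), the counts were 1 and 2 with the minimum of 1 CPM, 87 and 52 with no filter, 1 and 2 with RLE size factors, 19 and 25 with the length and GC correction, and 134 and 109 with DESeq2. Limma on log2(FPKM + 1) gave 10 and 43, without a filter 38 and 134, and on log2(FPKM + 0.1) 3 and 8. Leaving out 1 library gave 0 to 37 higher and 1 to 19 lower. The causes of these moves were not tested.

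With the replicate block, S4KO day 4 against day 0 gave 919 higher and 688 lower, and the difference from WT 0 higher and 24 lower. The deviations of same-numbered day 0 and day 4 libraries had correlations of 0.0235 in S4KO, 0.0357 in WT and 0.106 in S23DKO over 9821 genes, so the numbers were not shown to pair the libraries. With 2 libraries per group, leaving out 1 leaves a lone sample that is assumed to vary like the other groups, and precision is limited by this number more than by the depth of 31566376 to 55806858 counts. For genes under 1 CPM a difference of a few counts was not detectable. The replicate difference at S4KO day 0 followed exon length (Spearman's rho −0.471) and GC content (0.582) across genes, which are not independent replicates. The values were −0.102 and 0.019 at S4KO day 4, and −0.253 and 0.923 at WT day 4. The replicate differences of S4KO day 0 and WT day 4 had a Pearson correlation of 0.604. So a dependence on GC content also lay in a group of the differences from WT. With the length and GC correction, 28 of the 28 calls of the difference from WT were kept with the same direction. The part of GC content alone was not tested.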

Other observations

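Retinoic acid genes gave 1 rise and 1 fall among 16 in S4KO, with a median log2 change of 0.35. These counts were near the 5.08% called higher and 3.81% called lower over all genes. Cyp26a1, the enzyme that degrades retinoic acid, had 0.228 and 0.793 CPM at day 0 and 2.51 and 8.86 CPM at day 4 (3.46 ± 0.66 SE, edgeR adjusted p = 0.0107), against 51.1 and 57.5 CPM at WT day 4. Day 4 replicate 2 was again the higher of the pair, and the call was lost without it. Crabp1, a carrier of retinoic acid in the cytoplasm, fell from 13.3 and 21.0 CPM to 8.21 and 4.70 CPM (−1.41 ± 0.36, edgeR adjusted p = 0.0317), and in WT from 37.2 and 29.0 CPM to 2.54 and 3.98 CPM. The S4KO call of Crabp1 was lost without day 0 replicate 2 or day 4 replicate 2.

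Genes encoded by the mitochondrial genome gave 0 rises and 1 fall among 13 in S4KO, with a median of −0.67, while 4 rose and 0 fell in WT, with a median of 0.49. The share called lower in S4KO over all genes was 3.81%. At an unadjusted p under 0.05, 4 were lower in S4KO, beside 25.8% of all genes passing in either direction, and DESeq2 called 4 lower. The fall was that of mt-Cytb, a subunit of respiratory complex III, from 2761 and 3421 CPM to 1705 and 1385 CPM (−1.0 ± 0.22, edgeR adjusted p = 0.0181), and it was lost without day 0 replicate 2 or day 4 replicate 2. In S23DKO mt-Cytb fell from 2655 and 2610 CPM to 1225 and 1252 CPM. For 13 of 13 of these genes day 4 replicate 2 was below replicate 1.

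Of 16 trophectoderm genes 2 rose and 0 fell, Gata3 and Krt18, with a median of 0.42, and 0 of them rose without day 4 replicate 2. The defining factors Cdx2 (0.0944 and 0.187 CPM at day 4) and Elf5 (0.132 and 0.0933 CPM) were near 0 in S4KO, and Hand1 had 0.397 and 1.15 CPM at S4KO day 4 against 66.3 and 68.3 CPM at S23DKO day 4. These last 3 genes fell under the naming rule, Hand1 through the mesoderm list. They were set out here after their values were seen. Of 18 surface ectoderm genes 3 rose and 0 fell, Cldn6, Krt18 and Grhl2, with a median of 0.37, and DESeq2 called 7 higher and 0 lower. For the trophectoderm and surface ectoderm lists, the edgeR background was 5.08% called higher over all genes.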
